A study of Drosophila melanogaster with 66 samples.

Results

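The regions described here are places on the chromosome arms of Drosophila melanogaster where CLAMP was listed in embryos of both sexes at 2-4 h and in no embryos of nuclear cycles 11 to 14. They were selected from the authors' peak lists. A region of the female 2-4 h CLAMP list was taken when it overlapped a region of the male 2-4 h list by at least 1 bp and overlapped none of the 8 CLAMP lists of cycles 11, 12, 13 and 14. This gave 3698 gained regions, 36.0% of the 10265 regions of the female 2-4 h list on arms X, 2L, 2R, 3L and 3R. A further 5451 regions (53.1%) were in both 2-4 h lists and in at least 1 early list, and these are called held regions below. The remaining 965 were in the female 2-4 h list alone, and 151 were shared with an early list but not with the male 2-4 h list.

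CLAMP, a protein with zinc fingers, recognises GA-rich DNA on all chromosomes. In flies it is known for bringing the male-specific lethal (MSL) complex to the male X chromosome, where that complex raises transcription in dosage compensation. MSL3 is the chromodomain subunit of the complex, and MOF, its acetyltransferase, places the mark H4K16ac, acetylation of histone H4 at lysine 16, over transcribed genes. MOF also works outside the MSL complex, and H4K16ac is therefore found on autosomes and in females. CLAMP is also known to bind the promoter shared by the histone H3 and H4 genes in the histone gene cluster of both sexes.

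The study mapped CLAMP, H4K16ac and, in males, MSL3 by chromatin immunoprecipitation and sequencing of sexed embryos, in 66 samples (16 CLAMP, 10 H4K16ac, 8 MSL3, 16 IgG and 16 input). Nuclear cycles 11 to 13 are rapid divisions of nuclei in a shared cytoplasm. Cycle 14 is the long cycle in which cells form and most transcription of the embryo begins. Embryos of a known cycle were sorted by hand and pooled, 200 to a sample, whereas the 2-4 h samples are labelled by age and carry no cycle or number of embryos. All mothers were yw; attP2{PCNA-EGFP} virgins, so every embryo descends from a mother with the EGFP transgene. Sex was fixed by meiotic drive in the fathers, which carried SPSD over SD72 for both sexes. For male embryos the fathers' X was 19-3, yw with Rsp[s]-B[s], and for female embryos the fathers carried a + X and Dp(2:y)CB25-4 with y+ and Rsp[s]B[s]. Each sample is a pool of whole embryos, so a region listed in few cells and a region bound weakly in all cells cannot be told apart.

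The 25 peak lists hold 1 list for each sex, stage and target, so no value has an error between replicates and none of the differences was tested. Intervals are exact 95% Clopper-Pearson intervals and cover counting error only. Fold enrichment, a peak's signal over the local background, and −log10 q, its significance, are values of the authors' peak caller. They are used to describe and rank regions within a list, since nothing scales them between lists. Read depth was unknown. The lists differed widely in length, with 5394, 1797, 3879 and 523 CLAMP regions on the arms in females of cycles 11 to 14 and 133, 599, 4898 and 8377 in males. The median −log10 q was 38.8 in the female and 32.2 in the male 2-4 h list, against 7.74 to 14.6 in the early lists. A region can therefore be absent from the early lists because CLAMP was absent or because a shallower library missed it, and these cannot be told apart. On Y, male CLAMP lists had 0, 0, 0, 8 and 16 regions in order of stage and female ones 0, 0, 0, 0 and 3. H4K16ac lists had 5, 4, 3, 3 and 9 there in males and 5, 1, 0, 0 and 2 in females, so Y does not check the sex of the cycle 11 lists. The male cycle 14 CLAMP list stands apart, since its length is far above that of the female list of that stage while its overlap with the held regions is lower than that of the shorter male cycle 13 list (1878 against 4023 regions). Without it, 3873 regions were gained, with 13.9% on X.

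Held status rested mostly on a few lists. The female cycle 11 list overlapped 4539 of the 5451 held regions (83.3%), the male cycle 13 list 4023 (73.8%), the female cycle 13 list 3305 (60.6%) and the male cycle 14 list 1878 (34.5%). The female cycle 11 list alone kept 785 regions out of the gained set, the male cycle 13 list alone 343 and the male cycle 14 list alone 175. The male cycle 11 and cycle 12 lists kept out 0 and 1.

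CLAMP fold was part of the choice of regions, and it is given as a description. The gained regions had a median fold of 3.37 in females (quartiles 2.70 and 4.31, range 1.40 to 30.5) and 3.798 in males (quartiles 3.04 and 4.88, range 1.56 to 40.5). The held regions had medians of 5.54 and 6.40. Gained regions were narrower (median width 490 bp, against 688 bp for held regions), and more than 1 summit was seen in 10.5% of them against 21.6%. Their median −log10 q in females was 22.3 against 84.1. Among regions of both 2-4 h lists, the share that was gained was smaller in each higher one of 4 equal bins of female fold, from 68.5% in the lowest bin through 54.6% and 33.1% to 5.46% in the highest. A fold above 5 was reached by 496 gained and 3166 held regions, and a fold above 10 by 5 gained and 655 held regions. The gained regions thus lay mostly at the weaker end of the 2-4 h lists, with a few exceptions.

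At most gained regions the summits of the sexes lay close together. Gained and held regions were both chosen to overlap a region of the male list of the same age. This choice limits how far apart the summits can lie, so the held regions are no independent comparison. How much of the closeness comes from the choice was not tested. The summit of highest fold lay within 100 bp of that of the male region at 3410 of 3698 gained regions (92.2%), with a median distance of 23 bp, and at 94.8% of the held regions. Across gained regions the Spearman correlation of female with male fold was 0.77 (n = 3698), and across held regions it was 0.93 (n = 5451). These points share their 2 libraries and their local background, and the gained regions span a smaller range of fold. On the autosome arms the male fold was the higher of the pair at 2367 of 3192 gained regions (74.2%), with a median log2 ratio of male to female of 0.19. On X it was higher at 281 of 506 (55.5%), with a median of 0.04. The held regions showed the same order, with medians of 0.23 on the autosome arms and 0.14 on X. Males have 1 X, and the control given to the peak caller is not known here, so binding and copy number cannot be told apart.

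**Figure D1:**
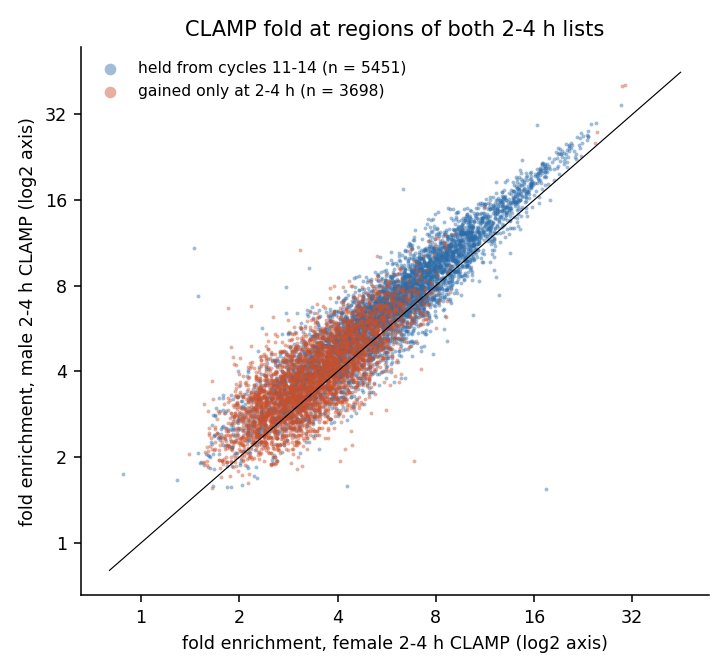
CLAMP fold enrichment in the female (x axis) and male (y axis) 2-4 h lists, both on log2 axes, 1 point per region of both lists, with the line of equal fold. Gained regions (n = 3698) have medians of 3.37 and 3.798 and held regions (n = 5451) of 5.54 and 6.40; 4 gained regions have a female fold above 20.

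The 4 gained regions with a fold above 20 lay at or nearest to repeated genes. The strongest was on 2L at 21424856 to 21425356 (dm6), 82 bp from His3:CG31613, a histone H3 gene, with a fold of 30.5 in females and 40.5 in males. A second region of the histone gene cluster, at 21540697 to 21541255 within the histone pseudogene His-Psi:CR33867, had folds of 25.02 and 27.7. The cluster, with 111 annotated histone genes between 21416953 and 21541681, held 0 regions in each of the 8 early CLAMP lists, 2 in the female 2-4 h list and 4 in the male one. It held 0 in all 10 H4K16ac and all 5 MSL3 lists. How reads from repeated copies were placed is not stated in the labels. The other 2 regions were on X at 23253268 to 23253746, 8285 bp from the nearest annotated gene, 28SrRNA-Psi:CR41609 (folds 29.7 and 40.3), and on 3R at 12477295 to 12477784 within lncRNA:alphagamma-element:CR32865 (24.6 and 25.3).

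Below these came regions of lower fold. Those named here lay within or next to a gene, apart from the one nearest to mir-10404-5. On X the next was nAChRalpha3, a subunit of the nicotinic acetylcholine receptor, with a region of 2253 bp at 8293978 to 8296230 and folds of 11.3 in females and 15.1 in males. It was followed by CG5445, at a summit that also lies within Fim (8.57 and 6.20). Then came the regions next to the RNA helicase gene kz (8.21 and 7.01) and next to Usp39, a splicing factor gene (8.15 and 7.53). After them came a region 434 bp from an early CLAMP region whose nearest gene is mir-10404-5, 106097 bp away (8.14 and 11.8). The X-linked kirre, an adhesion protein of muscle founder cells, and rho-4, a rhomboid protease, both had a female fold of 7.57, and male folds of 6.93 and 6.06. The summit at kirre also lies within rst. On the autosome arms the strongest single genes were DIP-epsilon, a neuronal recognition protein (9.10 and 12.2), Bulli (8.86 and 7.604), CG15141 (8.83 and 9.39), Sbf, a myotubularin-related protein (8.73 and 8.93), and IntS3, a subunit of the Integrator complex that processes small nuclear RNAs (8.65 and 7.06). Of these 5 regions, those at Bulli, CG15141, Sbf and IntS3 were overlapped by H4K16ac at 2-4 h in both sexes and that at DIP-epsilon in neither.

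Most gained regions lay within a few kb of an early CLAMP region. The nearest region of any early list was within 1 kb of 569 gained regions (15.4%), within 5 kb of 2154 (58.2%) and within 10 kb of 3008 (81.3%), with a median gap of 3983 bp. No such share was computed for other positions on the arms, and several early lists are long. Whether gained regions lie nearer to early ones than other positions do was not tested. Just inside the rule, the region at the mRNA decapping gene DCP1 directly adjoined an early region (gap 0 bp, female fold 5.32). A region 7773 bp from its nearest gene, bab1, a BTB transcription factor, was 1 bp from an early region (2.46). Those at sli, the ligand of the Robo receptors (2.03), and btz, a subunit of the exon junction complex (5.55), were each 5 bp away. Just outside it, regions at CG30471 (3.60), the metalloprotease gene Mmp2 (2.98) and CG3308 (4.85) were held by overlaps of 3, 10 and 10 bp. So was a region 2877 bp from its nearest gene, the gustatory receptor gene Gr93a (2.85), by 10 bp. The farthest gained regions lay near the centromeric ends of arms. The farthest of all, 208630 bp from an early region (fold 1.77), was 207100 bp from its nearest gene, CG40228. The next were within CG40160 (192950 bp, 4.03), DIP-lambda (159800 bp, 1.85) and Pzl, a Piezo-like channel gene (155650 bp, 3.02). Gained regions had a median distance of 7294 bp to the nearest other gained region, and held regions 5274 bp to the nearest held one.

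The X chromosome carried a smaller part of the gained regions than of the held ones. Of the gained regions, 506 were on X, 728 on 2L, 761 on 2R, 840 on 3L and 863 on 3R. The share on X was 13.7% (interval 12.6 to 14.8), against 23.2% of the held regions (22.04 to 24.3), 31.0% of the regions of the female list alone and 20.9% of all regions of the female 2-4 h list. Per Mb, the gained regions had a density of 21.5 on X and 29.4 on the autosome arms, a ratio of 0.732, whereas the held regions had 53.6 and 38.5, a ratio of 1.39. The lower X share was present in each bin of female fold, with 12.1, 14.96, 15.1 and 12.8% of gained regions on X from the lowest bin to the highest, beside 20.3, 26.9, 21.4 and 23.5% of held regions. The early lists that chose the classes differ in their own X share, which was 25.6 to 27.3% in the 4 female lists and 12.0 to 20.9% in the male ones. With the early lists of males alone, 4811 regions were gained and 17.8% of them were on X, beside 21.0% of the held ones. With those of females alone, 4255 were gained and 13.4% were on X, beside 24.5%. Without the female cycle 11 list the shares were 16.4 and 22.1%. Both classes also had to overlap the male 2-4 h list. Among regions in no early list, this left out 299 on X and 666 on the autosome arms, beside 506 and 3192 gained ones. Among regions in an early list, it left out 151. The part that this choice, early depth and the X share of the early lists have in the difference was not tested beyond these values. Beyond 22 Mb on X, where the ribosomal RNA genes lie, there were 31 gained regions (6.13% of those on X) and 25 held ones (1.98%).

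**Figure D2:**
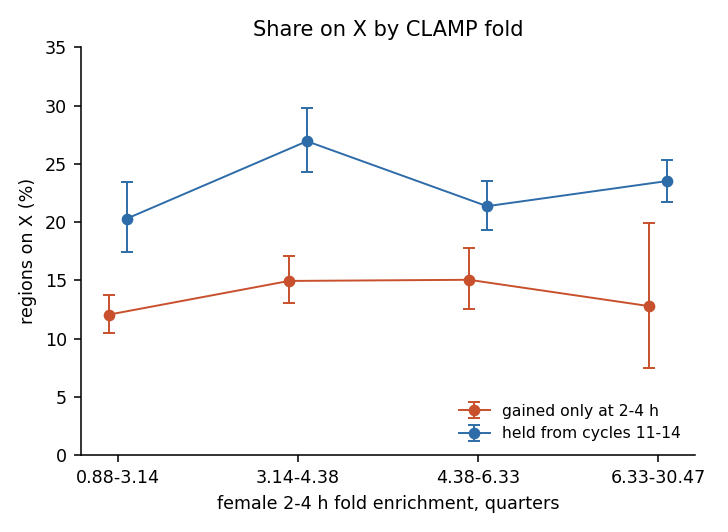
Share of gained and held regions on X (y axis, percent) in 4 equal bins of female 2-4 h fold enrichment over regions of both 2-4 h lists (x axis, range of each bin). Points are shares and bars exact 95% intervals of counting error; gained regions were at 12.1, 14.96, 15.1 and 12.8% and held regions at 20.3, 26.9, 21.4 and 23.5%.

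H4K16ac at 2-4 h overlapped 2314 gained regions in females (62.6%, interval 61.0 to 64.1) and 2286 in males (61.8%, 60.2 to 63.4), against 58.4 and 57.4% of held regions and 57.6 and 56.6% of all regions of the female 2-4 h list. With H4K16ac regions of −log10 q of at least 5 alone, it overlapped 49.9% of gained regions in females and 50.2% in males. The regions were largely the same in the sexes, with 2147 overlapped in both (58.1%), 167 in females alone, 139 in males alone and 1245 in neither (33.7%). Within bins of CLAMP fold, the gained and held regions parted more in each bin above the lowest, but not in the lowest. From the lowest bin to the highest, female H4K16ac overlapped 53.8, 63.0, 77.9 and 76.0% of gained regions and 49.8, 49.95, 63.1 and 62.0% of held ones. Male H4K16ac overlapped 52.9, 62.6, 76.6 and 76.0% of gained regions and 49.8, 48.8, 61.1 and 61.4% of held ones.

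At many gained regions H4K16ac was listed before CLAMP was. In females, 1867 gained regions (50.5%) had H4K16ac at 2-4 h and at 1 or more of cycles 11 to 14, 447 (12.1%) had it first at 2-4 h, 113 had it early and not at 2-4 h, and 1271 (34.4%) were in no female H4K16ac list. In males these counts were 1858, 428, 112 and 1300 (50.2, 11.6, 3.03 and 35.2%). Held regions had similar shares, in the same order 46.1, 12.3, 4.55 and 37.1% in females and 47.5, 9.87, 4.93 and 37.7% in males. Early H4K16ac was thus not particular to gained regions. Female H4K16ac lists overlapped 40.2, 42.1, 46.8 and 45.02% of gained regions at cycles 11, 12, 13 and 14, beside 37.3, 37.9, 41.6 and 39.4% of all regions of the female 2-4 h CLAMP list. Male lists overlapped 7.004, 39.8, 28.0 and 50.8% at the same cycles, beside 8.76, 35.8, 26.5 and 45.4% of all regions. Overlap in all 5 stages was seen at 1219 gained regions in females (33.0%) and at 194 in males (5.25%), beside 30.4 and 7.78% of held regions. The male cycle 11 H4K16ac list has 1194 regions on the arms against 5950 in females. In gained and held regions alike the share was higher at 2-4 h than at cycle 14.

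**Figure D3:**
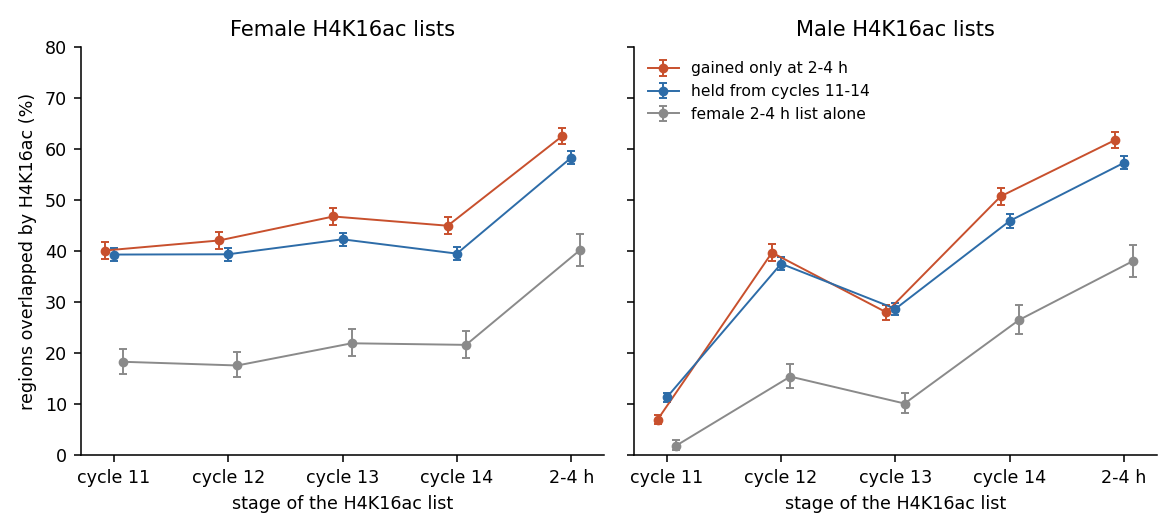
Share of CLAMP regions overlapped by H4K16ac (y axis, percent) in each stage's list (x axis), females on the left and males on the right. Points are shares and bars exact 95% intervals of counting error; gained regions are at 62.6% in females and 61.8% in males at 2-4 h, held regions at 58.4 and 57.4%, and regions of the female 2-4 h list alone lie lowest at every stage.

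On the X chromosome itself, H4K16ac at 2-4 h overlapped 57.9% of gained regions in females and 55.3% in males, below the autosome arms with 63.3 and 62.8%. At cycle 14 the order was the other way, with 46.8% in females and 53.8% in males on X and 44.7 and 50.3% on the autosome arms. At 2-4 h, 20 X regions were overlapped in males alone and 33 in females alone. Those of highest female CLAMP fold with the mark in males alone were CG42699 (5.60), CG5937 (4.87), rdgB, a phosphatidylinositol transfer protein of photoreceptors (4.35), svr, a carboxypeptidase (3.94), the ubiquitin ligase gene Ubr1 (3.54) and Nadsyn, an NAD synthetase (3.53). Their male H4K16ac folds at 2-4 h were 1.33 to 1.49, beside a median of 1.76 at all overlapped gained X regions. At cycle 14, female H4K16ac overlapped all of them but Nadsyn. Those with the mark in females alone were Cph, a zinc finger transcription factor (6.64), the nucleoporin gene Nup205 (5.31), e(y)3, a subunit of a SWI/SNF remodeller (5.28), kek5 (5.27), Flo2, a flotillin (5.11), and AP-1gamma, a clathrin adaptor subunit (4.99).

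MSL3 in males lay over gained regions of X chiefly at cycles 13 and 14, before CLAMP was listed there. Of the 506 gained X regions, the cycle 11 and cycle 12 lists overlapped 1 and 5, and the cycle 13 list overlapped 97 (19.2%). The cycle 14 list overlapped 121 (23.9%, interval 20.3 to 27.9) and the 2-4 h list 44 (8.70%, 6.39 to 11.5). With MSL3 regions of −log10 q of at least 5 alone, the 2-4 h share was 1.58% for X regions and 0.0627% for autosomal ones. The held X regions were overlapped in 19.3% at cycle 13, 17.3% at cycle 14 (15.2 to 19.5) and 6.74% at 2-4 h (5.42 to 8.26). All X regions of the female 2-4 h list were overlapped in 17.4, 17.3 and 6.24%. The MSL3 lists of cycles 11 to 14 hold 38, 31, 15113 and 1417 regions on the arms and that of 2-4 h 460, so list length differs widely between the stages compared. On the autosome arms, the lists of cycle 13, cycle 14 and 2-4 h overlapped 626 (19.6%), 25 (0.783%) and 16 (0.501%) of the 3192 gained regions, beside 22.6, 0.616 and 1.84% of all autosomal regions. The held autosomal regions were overlapped in 26.5, 0.573 and 3.13%. At 2-4 h the 131 held and 16 gained autosomal regions with MSL3 thus stand beside 85 and 44 on X.

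**Figure D4:**
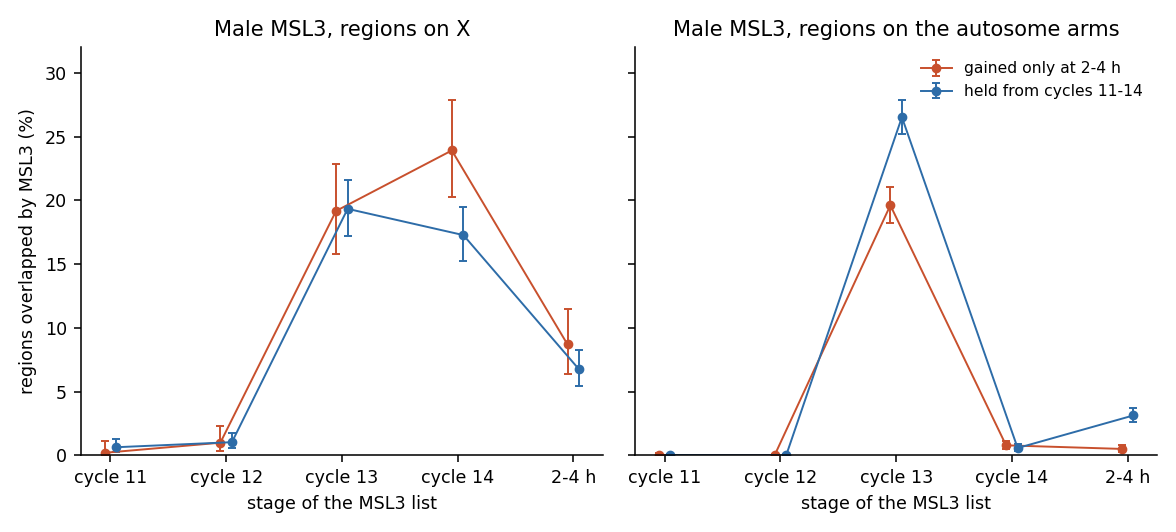
Share of CLAMP regions overlapped by male MSL3 (y axis, percent) in each stage's list (x axis), for regions on X (left) and on the autosome arms (right). Points are shares and bars exact 95% intervals of counting error; on X the gained regions are at 23.9% and the held at 17.3% at cycle 14, and at cycle 13 the gained regions are at 19.2% on X and 19.6% on the autosome arms and the held ones at 19.3 and 26.5%.

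Of the 506 gained X regions, 36 had MSL3 at cycle 14 and at 2-4 h, 85 at cycle 14 but not at 2-4 h, 8 at 2-4 h but not at cycle 14, and 377 at neither stage. Among the 121 with MSL3 at cycle 14, 118 were also overlapped by male H4K16ac of that cycle. At 2-4 h, male H4K16ac overlapped 90 of them (74.4%) and 49.4% of the other gained X regions. Female embryos, in which no MSL3 was mapped, showed the same order, with 71.1 and 53.8%. The median CLAMP folds of the 121 and of the others were 3.58 and 3.42 in females and 3.86 and 3.48 in males. In the lowest bin of CLAMP fold, cycle 14 MSL3 overlapped 25.9% of gained and 13.0% of held X regions. In the second bin these shares were 17.6 and 13.6%, and in the third 31.6 and 19.9%. In the highest it overlapped 3 of 16 gained X regions (18.8%) and 18.9% of held ones.

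The gained X region of highest MSL3 fold at cycle 14 was within mRpL14, a protein of the mitochondrial ribosome (X 2344313 to 2344735), with an MSL3 fold of 5.16 and CLAMP folds at 2-4 h of 2.54 in females and 2.19 in males. Next came ebo (MSL3 fold 4.92), CG15602 (4.79), su(w[a]), a splicing regulator with 2 gained regions under 1 MSL3 region (4.57), CG2202 with 2 regions (4.48) and Alms1a, a centrosomal protein (4.47). At 2-4 h the strongest MSL3 at gained X regions was at the region nearest to 28SrRNA-Psi:CR41609, with an MSL3 fold of 26.8, and at the one nearest to mir-10404-5 (8.60). Both are beyond 22 Mb, where the ribosomal RNA genes lie. Their H4K16ac folds at 2-4 h were 5.21 and 10.5 in females and 7.45 and 9.14 in males. How reads from repeated copies were placed there is not stated. These 2 regions were followed by the region beside tRNA:Ser-AGA-3-2 (4.98), nAChRalpha3 (4.43), CG42699 (4.07), CG15602 (3.76), the LIM homeobox gene Lim1 (3.76) and CG4645 (3.74). Of all 8 regions, those at tRNA:Ser-AGA-3-2, CG42699, CG15602 and CG4645 were already under MSL3 at cycle 14.

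On the autosome arms MSL3 at 2-4 h was strongest at the gained region next to mRpS23, another gene of the mitochondrial ribosome (2L 13834961 to 13835809, MSL3 fold 6.06), which also overlaps an end of CenG1A. This was the 1 autosomal gained region with MSL3 at cycle 14 (2.40) and at 2-4 h. Others were at Pka-R1, a regulatory subunit of protein kinase A (5.76), Maf1, a repressor of RNA polymerase III (4.96), CG2698 (4.63) and tRNA:Ile-TAT-1-1 (4.60). They were also at Myo81F, a myosin gene in pericentromeric 3R (4.45), and CG43110 (3.98). Another lay 1276 bp from its nearest gene, the Hox gene pb (4.01). The 25 autosomal regions with MSL3 at cycle 14 were led by Bruce, an inhibitor of apoptosis (2.59), CG34149 (2.51) and the fucosyltransferase gene FucTA (2.42). They also included Not1, a scaffold of the deadenylase complex (2.31), tra, the splicing regulator of female sex determination (2.29), E(z), the methyltransferase of Polycomb repression (2.28), and the proteasome gene Prosbeta6 (2.27). The cycle 14 examples were chosen after their values were seen.

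Gained regions sat close to the ends of genes. The summit of 1979 gained regions (53.5%, interval 51.9 to 55.1) was within 500 bp of an end of a protein-coding gene, against 2349 held regions (43.1%, 41.8 to 44.4) and 27.6% of regions of the female list alone. The median distance to such an end was 283 bp for gained and 931 bp for held regions. The gene table gives no strand, so starts and ends of genes could not be told apart. H4K16ac differed with this position. Gained regions within 500 bp of a gene end were overlapped by it at 2-4 h in 84.2% in females and 83.6% in males, and the other gained regions in 37.6 and 36.7%. For held regions these shares were 80.3 and 79.9% near gene ends and 41.8 and 40.3% elsewhere. Near gene ends the gained regions thus had the higher share of the pair, and away from them the held regions.

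A protein-coding gene was assigned a gained region when one overlapped the gene or 1 kb on either side, which held for 3198 gained regions (86.5%). Of 13842 protein-coding genes on the arms, 4460 (32.2%) had a gained region and 4989 (36.0%) a held one. Of the 4460, 2469 (55.4%) had no region of any early CLAMP list in the same span, and 1991 had one. On X, 612 of 2197 genes (27.9%) had a gained region, and on the autosome arms 3848 (33.0%). The share was larger among longer genes, from 19.1% in the shortest of 4 equal bins of genes through 30.7 and 34.7% to 44.5% in the longest. In the shortest bin 77.7% of the genes with a gained region had no early region, and in the longest 23.9%.

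Most of these genes had 1 gained region, 885 had at least 2, 159 at least 3 and 32 at least 5. The genes with the most were long. Myo81F, which spans 1965857 bp, had 10, and CG9380, bru3, an RNA-binding protein gene, and olf413 had 8 each. CenG1A, a GTPase-activating protein gene of 63149 bp, had 7, with a highest female fold of 8.53, and 1 held region. Svil, fz, the Wnt receptor gene frizzled, and l(2)41Ab had 7 each.

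Genes of embryonic patterning were nearly all held and seldom had a gained region without an early one. Among all protein-coding genes, 17.5, 26.7, 38.5 and 61.5% had a held region from the shortest length bin to the longest. All 14 gap genes, 9 pair-rule genes and 23 dorsoventral patterning genes had a held CLAMP region, and 3 (21.4%), 1 (11.1%) and 5 (21.7%) of them had a gained region as well, below the 36.3, 36.6 and 38.2% of all genes of the same length bins. The gap genes with one were knrl (female fold 3.62), hb (3.27) and cad (2.64), which have 9, 9 and 20 early list regions in their spans. The Hox genes and cofactors, which are long, had gained regions at 7 of 11 (63.6%, against 43.6% of all genes of the same length bins), among them hth (5.41), pb (4.97), Dfd (4.66) and Antp (4.31). All 11 also had held regions. None of the genes with a gained region among the gap, pair-rule, segment polarity, Hox, dorsoventral, endoderm, tracheal, EGFR and FGF, or axon guidance lists lacked an early region. Among all genes with a gained region, 67.4% lacked one in the third length bin and 23.9% in the longest. The median gene was in the third bin for the gap and pair-rule lists and in the longest for the others. Gained regions lay at 7 of 14 segment polarity genes (50%, against 41.7% of all genes of the same length bins), led by fz (5.51), and at 12 of 24 EGFR and FGF signalling genes (50%, against 43.6%). Endoderm genes had them at 6 of 14 (42.9%, against 42.8%) and tracheal genes at 3 of 13 (23.1%, against 42.2%). They lay at 6 of 22 proneural and neuroblast genes (27.3%, against 36.9%), led by grh (6.28), and at 5 of 19 Notch pathway genes (26.3%, against 29.9%), led by E(spl)m2-BFM with no early region (4.04). Polycomb and Trithorax group genes had them at 11 of 28 (39.3%, against 40.5%), led by kto (4.95). Of 12 apoptosis genes, 6 had one (50%, against 35.6%), among them the caspase genes Dronc (4.09) and Drice (4.07) and the tumour suppressor p53 (3.46), which had no early region. The list of the MSL complex, CLAMP, the roX RNAs and chromatin proteins of the male X had held regions at 11 of 11 genes. Gained ones lay at 2 of these (18.2%, against 40.1%), mof, the acetyltransferase gene (3.34), and msl-1 (2.56).

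Lists of genes of later function had gained regions at between 25.9 and 53.1% of their genes. Of 47 neuronal ion channel and synaptic genes, 22 (46.8%) had a gained region and 24 (51.1%) a held one. The strongest gained regions here were at nAChRalpha3 (11.3), nAChRalpha4 (8.09), Oamb, an octopamine receptor (7.004), and Snap25, a protein of vesicle fusion (6.56). Of 23 septate junction and polarity genes, 11 had a gained region and 19 a held one, the gained led by cora (8.004), Cont (7.23) and the claudin kune (4.995), all 3 components of septate junctions, and by dlg1 (4.47). Axon guidance genes had gained regions at 17 of 32 and held ones at 29, the gained among them Fas3 (5.51), Lar (5.03), Dscam2 (4.99) and sli (3.97). Ecdysone pathway genes had gained regions at 10 of 21 and held ones at 15, the gained led by dib, a cytochrome P450 of ecdysone synthesis with no early region (7.98), and the nuclear receptor gene Hr78 (5.84). Mesoderm and muscle genes had gained regions at 12 of 32 and held ones at 17. The gained were led by kirre (7.57, at a summit also within rst) and the myosin heavy chain gene Mhc (3.52). Cuticle and chitin genes had gained regions at 7 of 27 and held ones at 9, the gained led by pio (5.96) and dpy (5.27). Beside all genes of the same length bins, these lists went both ways. The gained share was above theirs for neuronal (46.8 against 43.6%), septate junction and polarity (47.8 against 41.9%), axon guidance (53.1 against 44.2%) and ecdysone genes (47.6 against 41.0%). It was below theirs for mesoderm and muscle (37.5 against 40.1%) and cuticle and chitin genes (25.9 against 39.7%). The median gene of each of these lists was in the longest bin, where 61.5% of all genes had a held region. The held share was lower in the neuronal (51.1%), mesoderm and muscle (53.1%) and cuticle and chitin lists (33.3%). It was higher in the septate junction and polarity (82.6%), axon guidance (90.6%) and ecdysone lists (71.4%).

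In several groups of genes of the cell's basic machinery, the share with a gained region was above that of all genes of their length. The lists of this and the next paragraph other than the cell cycle list were made from symbols after values were seen, and they support nothing further. Mitochondrial ribosomal protein genes had a gained region at 38 of 73 (52.1%, against 22.5% of all genes of the same length bins). Of the 38, 28 (73.7%) had no early region. Among all genes with a gained region, that share was 77.7, 73.4, 67.4 and 23.9% from the shortest length bin to the longest. The median gene of this list was in the shortest bin. The strongest were mRpL23 (7.46), mRpS10 (5.07), mRpL32 (4.75) and mRpS22 (4.72). Aminoacyl-tRNA synthetases, which load amino acids onto tRNAs, had a gained region at 17 of 32 (53.1% against 34.9%) and a held one at 7. Of the 17, 14 (82.4%) had no early region, with a median gene in the third bin. MetRS (7.16), LeuRS-m (6.84), TrpRS (6.32) and TyrRS (4.99) led. Respiratory complex I subunits had a gained region at 19 of 39 (48.7% against 25.6%), led by ND-51 (6.91). Proteasome subunits had one at 22 of 48 (45.8% against 27.9%), led by Rpt5 (6.26) and Prosalpha5 (6.06). No early region was present at 15 (78.9%) and 14 (63.6%) of these genes, with median genes in the shortest bin and the next. Integrator subunits had one at 6 of 11 (54.5% against 36.6%), led by IntS3 (8.65), and nucleoporins at 11 of 21 (52.4% against 37.3%), led by Nup154 (6.93). Cell cycle and replication genes had one at 16 of 34 (47.1% against 34.8%), including the origin recognition gene Orc2 (6.10), Cdc6 (5.84), the Aurora B kinase gene aurB (5.11) and fzy, an activator of the anaphase-promoting complex (4.70). H4K16ac at 2-4 h overlapped these 4 genes or their flanks in both sexes.

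Other large families had another make-up. Cytoplasmic ribosomal protein genes were mostly held, with 70 of 91 (76.9%) having a held region and 27 (29.7%, against 26.5%) a gained one, of which RpL24 (8.12), RpS10a (7.73), RpS28-like (6.96) and RpL6 (6.75) were the strongest. Cuticle protein genes of the Cpr family had gained regions at 6 of 70 (8.57%) and held ones at 4, and odorant and gustatory receptor genes at 14 of 119 (11.8%) and 7, against 26.2 and 31.0% of all genes of the same length bins. These 2 families thus had few CLAMP regions of either class.

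**Figure D5:**
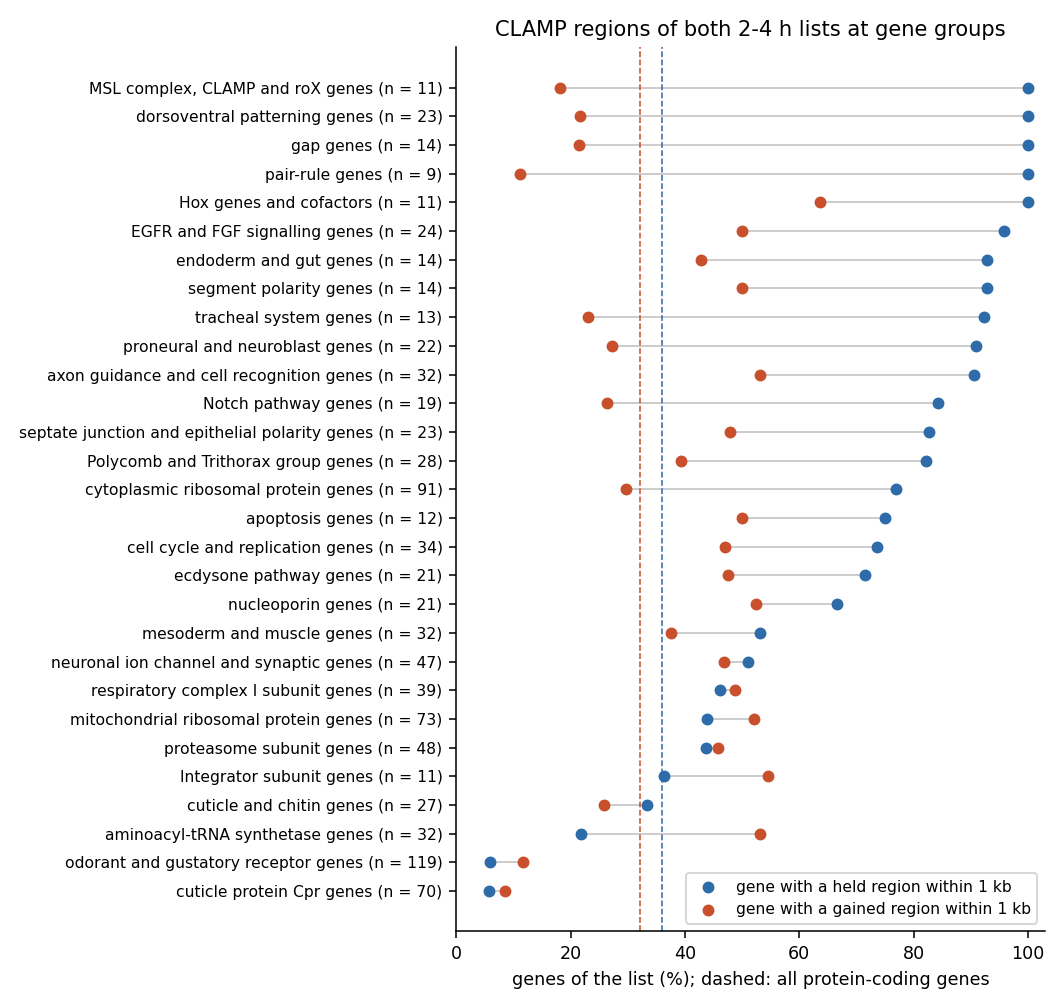
Share of the protein-coding genes of each list (x axis, percent) with a gained or a held CLAMP region in the gene or within 1 kb, 1 row per list with its number of genes; dashed lines are the shares of all protein-coding genes, 32.2% gained and 36.0% held. Patterning lists lie at or near 100% for held regions, and gained exceeds held in the mitochondrial ribosomal protein (52.1 and 43.8%), aminoacyl-tRNA synthetase (53.1 and 21.9%), complex I (48.7 and 46.2%), proteasome (45.8 and 43.8%), Integrator (54.5 and 36.4%), receptor (11.8 and 5.88%) and Cpr (8.57 and 5.71%) lists.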

How the data were processed

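The authors' lists of CLAMP are narrow peaks and those of H4K16ac and MSL3 broad peaks. The authors deposited for each peak its fold enrichment, a ratio, and 2 significance values, −log10 p and −log10 q, with a score that is a rescaled −log10 q and, for CLAMP, a summit offset (the score and p were not used). The submitters' processing notes name Bowtie2, Picard, SAMtools 1.9, MACS2 2.1.1 and build dm6; control library, settings and pooling are not given in the sources used here. The 2-4 h CLAMP peak names carry the suffix NI, which is not explained. Lists were grouped by the samples' labels; 6 early CLAMP samples have no list filed under them here, and no IgG or input list was used.

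A region with several summits was counted once, with the highest fold and its summit. Overlap was at least 1 bp on dm6 coordinates, printed from base 1. Classes, overlaps and gaps were computed with Python 3.11.15, pandas 2.3.3, NumPy 2.4.6 and SciPy 1.17.1, after tests on simulated regions. With 1 list per group no test between conditions was made. Chromosomes 4, Y and M were left out of all shares.

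Genes came from the RefSeq table of Release 6, without strand or exons: 17570 genes on the arms, 13842 of them protein-coding. Of 436 listed names in 20 gene lists, 405 matched a gene on the arms; 9 further lists took symbols by pattern. Arm lengths (X 23.54 Mb, autosomes 108.8 Mb) end at the last annotated gene. The members and lists were chosen with earlier results of these data known. Named regions are the 8 of highest fold on X and on the autosomes, the 8 of highest MSL3 fold at 2-4 h on each, 6 per sex with H4K16ac in 1 sex on X, the 4 nearest to and 4 farthest from an early region and the 4 just outside; named genes are the 8 with most gained regions and up to 4 per list by fold. Alternatives changed the overlap, the −log10 q, the base list, the early lists, the X range, the summit and the gene flank. GA motifs and sequences were not run, since no genome was used here.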

Additional observations from a re-analysis of the deposited data

Results flagged for a closer look

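Chromosomes outside the arms were not part of any comparison above, and the same choice of regions gave counts above 3, the limit that a count of 0 allows. On chromosome 4, 63 of the 159 regions of the female 2-4 h CLAMP list were gained and 71 were held. On the mitochondrial genome (M), 4 of 8 were gained. On Y, 2 of 3 regions of the female list were gained, which is under that limit. No explanation of these counts was tested.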

How the results depend on the processing

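Over 77 values under other settings, 64 moved by less than 1.5 times (counts) or stayed within the 95% interval of the value above (shares and the median fold), and 13 did not. The X share of gained regions was 13.3 to 17.8% under all 14 settings tried for it and lower than that of the held regions in each where both were computed. It was 16.4% without the female cycle 11 list, where male H4K16ac overlapped 60.1%, and 17.8% with early lists of males alone. When an early region had to cover 50% of a region to exclude it, 5592 regions were gained. With 50% of the region to be covered by the target, H4K16ac overlapped 53.03% in females and 51.9% in males at 2-4 h and MSL3 0.251% on the autosomes. With target regions of −log10 q of at least 5, H4K16ac overlapped 49.9 and 50.2%, and MSL3 1.58% on X and 0.0627% on the autosomes. The lowest fold of the summits gave a median of 3.22, and genes without a flank held 82.4% of gained regions. The early lists of 1 sex and the lists without both of cycle 14 were chosen after seeing the data. The GA motif alternative was not run. No paired analysis was possible because each 2-4 h group has 1 sample and 1 list, and groups with 2 labelled replicates have 1 list. Read depth was unknown, so absence from an early list is no measure of absence of CLAMP.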

Other observations

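Among the types of noncoding gene counted, tRNA genes had gained regions in a larger share than held ones. Of 290 tRNA genes, 84 (29.0%) had a gained region within 1 kb, 79 of them (94.0%) with no early CLAMP region, and 56 (19.3%) had a held one. Among miRNA, snoRNA, antisense RNA and lncRNA genes with a gained region, 87.5, 78.1, 75.2 and 60.2% had no early one. Gained regions directly overlapped 50 tRNA genes (17.2%) with 28 regions, of median female fold 2.56, and held regions overlapped 19 (6.55%) with 14 regions, of median fold 7.96. Several tRNA genes share a region, and they are near-identical copies, so placement of reads among them was not tested. By amino acid, 12 of 20 serine tRNA genes, 6 of 17 alanine and 6 of 22 leucine tRNA genes were overlapped by a gained region, and 0 of 19 glutamate and 0 of 14 aspartate tRNA genes.

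MicroRNA and snoRNA genes showed the other order. Of 258 miRNA genes, 16 (6.20%) had a gained and 68 (26.4%) a held region within 1 kb, and of 268 snoRNA genes 32 (11.9%) and 117 (43.7%). Long noncoding RNA genes had gained regions at 206 of 1945 (10.6%) and held ones at 404 (20.8%).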
